A study of Mus musculus with 8 samples.

Results

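The genes described here encode the extracellular matrix of the liver, the enzymes that build and break it down, and the markers, receptors and contractile proteins of hepatic stellate cells. They were taken as a fixed list of 55 gene symbols covering matrix, fibrosis and stellate cells, by a rule that uses no measured value, although the list was drawn up with earlier results of these data known, and all 55 were found once among the 49585 genes of the count file. Of these, 54 passed the filter on low counts, and Timp1 did not. RNA was measured in whole liver of 8 male mice kept for 3 months on a high-fat, choline-deficient (HFCD) diet, which started at day 21 of age in every group. The 2 LPfl/+ livers carried the Alb-CreTG transgene and 1 floxed Trp53 allele (Trp53fl/+), and the 3 LP245/+ livers carried Alb-CreTG and the Trp53wm-R245W/+ allele, which gives wild-type p53 until Cre converts it to the R245W missense mutant. The 3 LP+/+ livers served as controls and are labelled Alb-Cre0, that is without Cre, with Trp53fl/+ in replicates 1 and 2 and Trp53wm-R245W/+ in replicate 3. The study's methods allow littermates with or without Cre as controls, although its description of the LP+/+ cohort gives the transgene, so by the labels of these livers each mutant group differs from LP+/+ by Cre as well. Alb-Cre acts in hepatocytes and cholangiocytes, so stellate cells, fibroblasts, endothelial cells and macrophages kept their Trp53 alleles unrecombined in all 3 groups.

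Hepatic stellate cells lie between the hepatocytes and the sinusoids and, in the healthy liver, store vitamin A. When the liver is injured they can turn into contractile myofibroblasts, under signals that include TGF-beta and PDGF, and lay down fibrillar collagen, which is the scar of fibrosis. Basement membrane collagen, fibronectin, proteoglycans and elastic fibre proteins form the rest of the matrix, metalloproteinases cut it, tissue inhibitors of metalloproteinases restrain them, and lysyl oxidases crosslink collagen and elastin. Diets that are rich in fat and poor in choline are used to produce steatohepatitis in mice, and the comparison of the genotypes asks whether a Trp53 lesion in hepatocytes goes with a different matrix programme before tumors appear.

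Between 26304526 and 31370714 counts per liver were available. Values are given as normalized read counts, that is counts divided by a size factor per liver, and levels are compared between genes only per kb of exon. Trp53 itself had normalized counts of 226, 258 and 202 in the controls, 127 and 178 in LPfl/+, and 316, 294 and 193 in LP245/+, so both LPfl/+ livers lay below the other 6. Each label of a liver ends in a number, which was taken here as a library number. Neither the labels nor the paper says what these numbers count, and neither names a series. The numbers fall into 2 separate ranges, which were treated as 2 series of libraries. One held all 3 LP245/+ livers with LP+/+ replicates 2 and 3, and the other held both LPfl/+ livers with LP+/+ replicate 1. The first principal component of all genes tested held 31.1% of the variance and separated these 2 series. LPfl/+ therefore met only 1 control liver of its own series. LP245/+ and LPfl/+ shared no series, and a fit with the series as a covariate joins them through the controls, which lie in both. Hepatocyte markers, which check the labelled tissue, dominated every liver, with a summed normalized count of 2918524 to 4286705 over 8 markers, against 15945 to 19386 for 12 stellate cell markers. No marker of the 9 cell type lists was at 0 in every liver. In bulk tissue, fewer cells of a type and less RNA per cell cannot be told apart.

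By level, a pair of genes led all others, and the genes of stellate cells and myofibroblasts were spread over a wide range. Fibronectin (Fn1), which hepatocytes also secrete into plasma, and the endostatin precursor collagen XVIII (Col18a1) ranked first and second, with 4023 and 3910 normalized counts per kb as the mean of the 8 livers. Decorin (Dcn), a proteoglycan that binds collagen fibrils and TGF-beta, followed with 894 per kb, the fibril-associated collagen XIV (Col14a1) with 561, the collagen-binding protein Sparc with 522 and Tgfbi, an integrin-binding matrix protein, with 469. The stellate cell gene Reln, a secreted glycoprotein, reached 283 per kb and Lrat, the enzyme that esterifies vitamin A for storage, 181, while the neurotrophin receptor Ngfr, also a stellate cell marker, had 40.8. The fibrillar collagen genes had 151 per kb for Col3a1, 42 for Col1a2 and 31.1 for Col1a1. Of the genes of activated cells, smooth muscle actin (Acta2) had 43.4 per kb, near Ngfr, and desmin (Des) had 31.6. Much lower values were 4.08 for transgelin (Tagln), 4.73 for Timp1 and 2.79 for Lox, which was last of the 55.

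**Figure D1:**
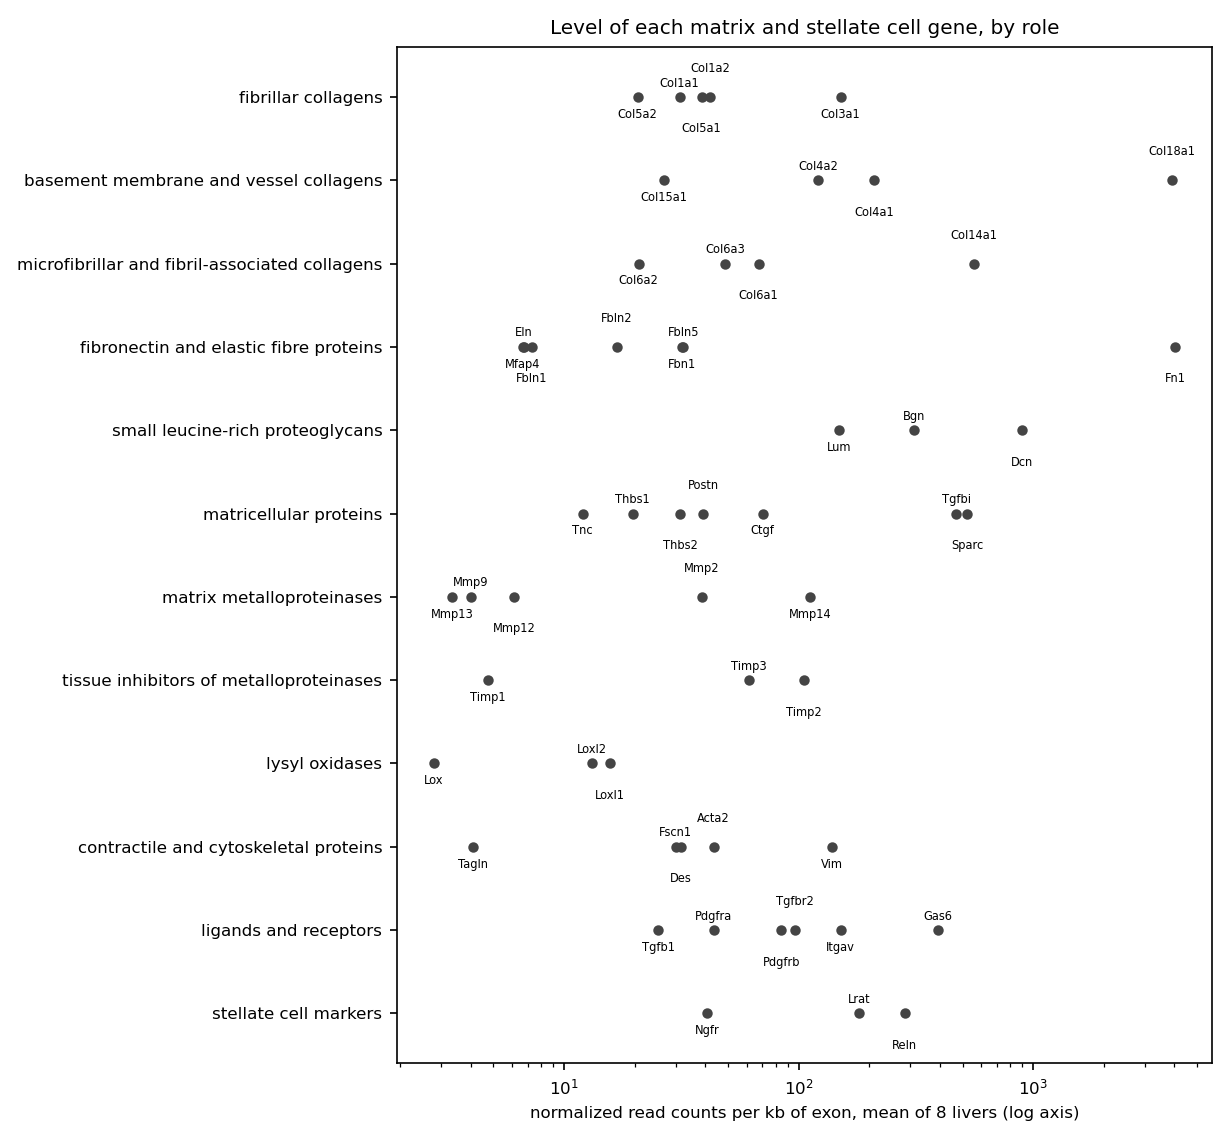
Normalized read counts per kb of exon, as the mean of 8 livers on a log axis, for each of the 55 genes (points, labelled) in 12 roles (rows). Fn1 and Col18a1 sit at 4023 and 3910 per kb, while Lox, Mmp13, Mmp9 and Tagln lie between 2.79 and 4.08.

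The 55 genes took 0.301% to 0.494% of the counts of a liver, and 0.11% to 0.145% once Fn1 and Col18a1 were left out. Of the 55, 12 had a mean normalized count of at least 1000, and 6 were under 20, where a few reads decide the value. For 25 of the genes another annotated gene overlaps, on the opposite strand for 24. The strand that was counted is not given in the sources used here, so reads of such partners may be mixed. Tagln is the clearest case, with 2.82 to 15.2 normalized counts beside 744 to 1053 counts of its opposite-strand neighbour Pcsk7.

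Promoter sequence was available for 38 of the genes, as RefSeq windows on GRCm38.p6, of which the 250 bases before each start site were searched on both strands for the TATA box (TATAAA), the CCAAT box (CCAAT) and the GC box (GGGCGG). A match is a description of letters and not a binding site. GC boxes stood in 24 of the 45 windows of these genes (53.3%) and in 32.7% of all 32851 windows, CCAAT boxes in 12 (26.7%) against 33.8%, and TATA boxes in 8 (17.8%) against 12.4%. Bases free of annotated exons, with motif matches in capitals, follow for a gene with a TATA box among the fibrillar collagens (Col3a1, chr1:45311288-45311537, plus strand), the gene with the lowest p of any comparison (Timp3, chr10:86300162-86300371, plus strand, ending 40 bases short of the last base before the RefSeq start, with no match), the gene with the lowest p between LP245/+ and LP+/+ (Tgfbr2, chr9:116175364-116175613, minus strand) and the most abundant of the stellate cell markers (Reln, chr5:22344706-22344955, minus strand).
Col3a1: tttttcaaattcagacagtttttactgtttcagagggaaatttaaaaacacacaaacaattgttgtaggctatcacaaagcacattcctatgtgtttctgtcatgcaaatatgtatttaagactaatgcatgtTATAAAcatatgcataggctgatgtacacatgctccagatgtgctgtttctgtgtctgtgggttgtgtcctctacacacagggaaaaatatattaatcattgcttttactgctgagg
Timp3: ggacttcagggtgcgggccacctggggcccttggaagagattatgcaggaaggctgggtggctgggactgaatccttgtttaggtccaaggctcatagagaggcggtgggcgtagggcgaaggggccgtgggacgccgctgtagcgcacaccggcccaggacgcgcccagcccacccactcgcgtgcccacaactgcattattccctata
Tgfbr2: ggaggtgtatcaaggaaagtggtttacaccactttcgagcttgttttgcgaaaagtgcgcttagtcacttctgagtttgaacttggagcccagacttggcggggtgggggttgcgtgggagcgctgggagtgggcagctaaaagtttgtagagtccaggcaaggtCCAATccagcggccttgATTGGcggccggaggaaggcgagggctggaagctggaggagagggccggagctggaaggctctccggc
Reln: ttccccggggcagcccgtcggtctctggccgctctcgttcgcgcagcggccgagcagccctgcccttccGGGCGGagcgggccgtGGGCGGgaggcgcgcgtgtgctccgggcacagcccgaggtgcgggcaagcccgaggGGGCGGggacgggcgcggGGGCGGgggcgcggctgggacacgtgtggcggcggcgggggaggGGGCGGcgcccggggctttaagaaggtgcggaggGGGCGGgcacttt
Reln holds 6 GC boxes, Tgfbr2 holds 2 CCAAT boxes and no GC box, and Col3a1 holds 1 TATA box and neither of the others. The Timp3 stretch shown holds none of them, but the full window of 250 bases of Timp3 has a GC box and is counted above.

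The level of the matrix genes differed more from liver to liver than by genotype. LPfl/+ replicate 1 had the lowest value of all 8 livers for 30 of the 54 genes tested (55.6%), whereas 11.4% of all genes tested had their lowest value there. Its median deviation from the gene means was -0.32 on the log2 scale, and 42 of the 54 lay below their mean. The other LPfl/+ liver, replicate 2, was lowest for 2 genes and had a median deviation of 0.02. At the other end stood a control, LP+/+ replicate 2, which was highest for 19 of 54 (35.2%, against 11.2% of all genes tested) with a median deviation of 0.16. The 3 LP245/+ livers had medians of 0.06, 0.13 and -0.11, and the remaining controls -0.07 and 0.09.

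**Figure D2:**
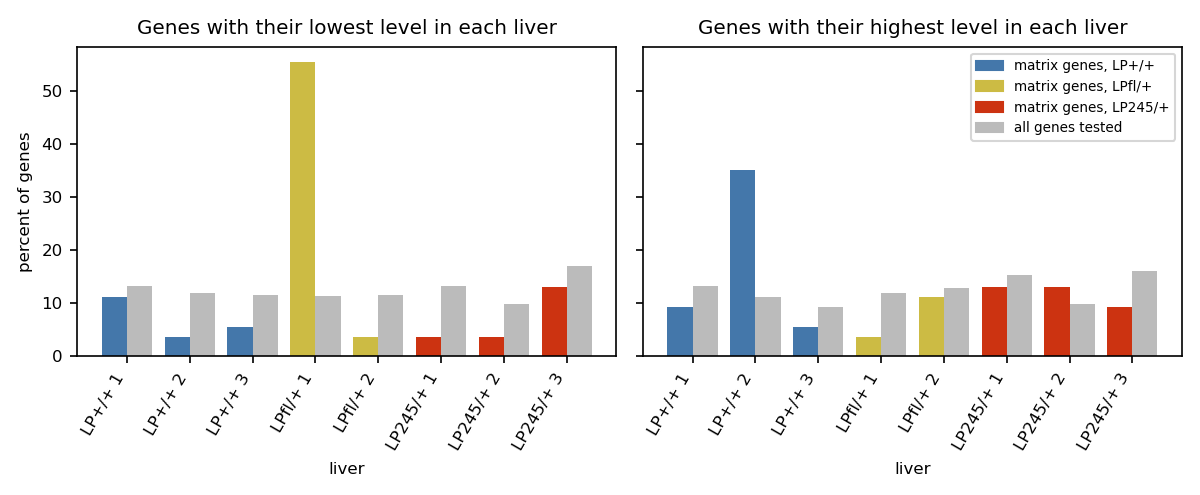
Percent of genes whose lowest (left) or highest (right) normalized read count fell in each of the 8 livers, for the 54 matrix genes tested (coloured by genotype) and for all 16496 genes tested (grey). LPfl/+ replicate 1 held the lowest value of 55.6% of the matrix genes and LP+/+ replicate 2 the highest of 35.2%, while the grey bars stay between 9.37% and 17.1%.

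Markers of other cells moved in LPfl/+ replicate 1 as well. Its summed normalized count was 12587 over the 9 sinusoidal endothelial markers (15406 to 18414 in the other 7 livers), 15945 over the 12 stellate cell markers (17179 to 19386) and 1883 over the 8 myofibroblast markers (2148 to 3655), and 257 over 9 markers of portal fibroblasts and smooth muscle (310 to 506). The stellate cell sum weighs abundant genes most, among them Reln, with 4831 in this liver and 6016 to 7923 in the others. Over the 12 stellate cell markers the median log2 deviation of this liver was -0.14, against -0.09 to 0.10 in the others. Its lower sum therefore cannot be read as a fall of all 12. Over the 12 macrophage markers the same liver was highest, at 14205 (9939 to 13161). Of these markers, 6 of the stellate cell list, all 8 of the myofibroblast list and 2 of the portal list are among the 55 genes, and 0 of the endothelial and macrophage lists. Summed cholangiocyte markers ran from 863 to 1363, mesothelial ones from 161 to 269 and lymphocyte ones from 78.8 to 190. The part of these cell types in the differences between genotypes was not tested.

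**Figure D3:**
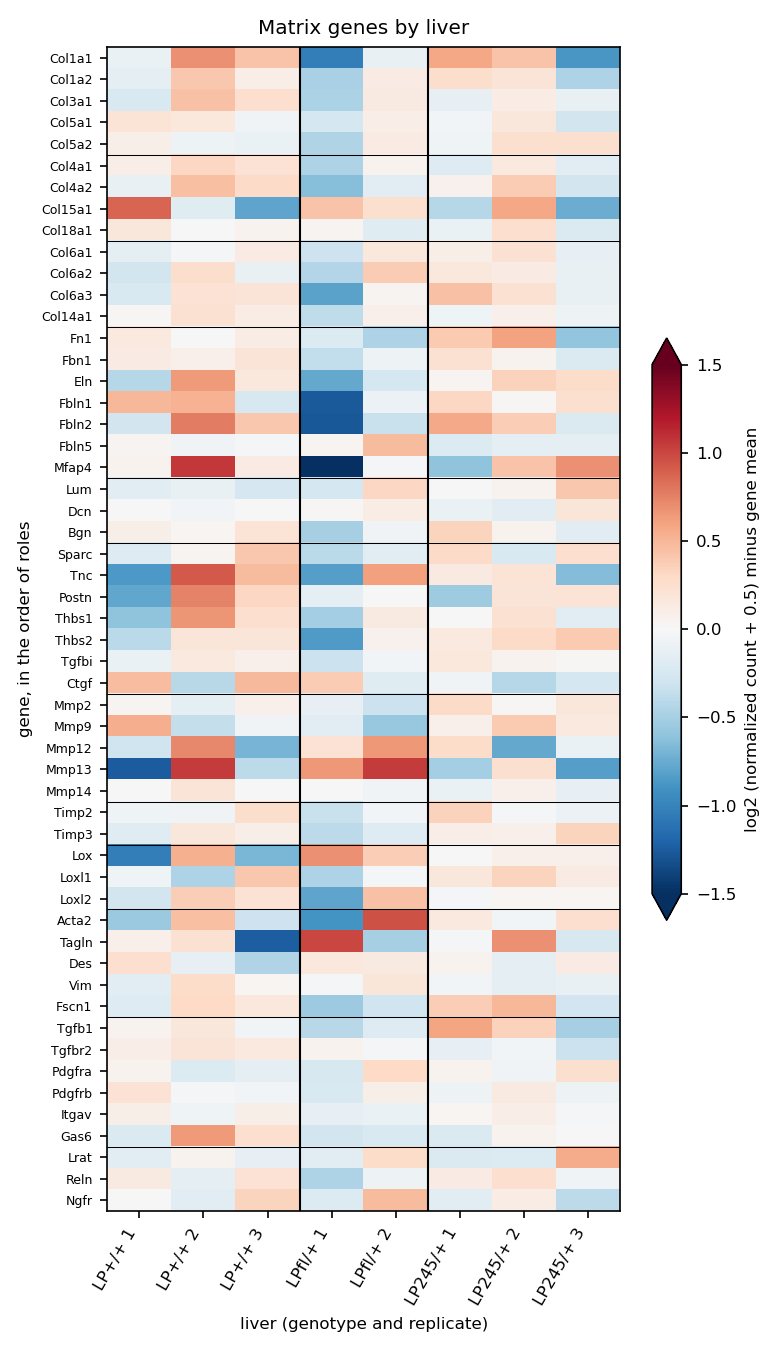
Difference of log2 (normalized count + 0.5) from the gene's mean over the 8 livers (columns), for the 54 matrix genes tested (rows, in the order of roles, with lines between roles); red is above the mean, blue below, and the scale ends at -1.5 and 1.5. The column of LPfl/+ replicate 1 is blue for 42 of 54 genes, and the column of LPfl/+ replicate 2 for 27.

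Between LP245/+ and LP+/+ livers the matrix genes were split evenly. Of the 54 tested, 26 were higher and 28 lower in LP245/+, with a median log2 fold change of -0.03 beside 0.00 over all genes tested. With edgeR's quasi-likelihood test, 0 of 54 passed the cutoff of the study (a log2 fold change of 1 or more in either direction with an adjusted p no higher than 0.05), which 0.00606% of all genes passed, and the smallest adjusted p was 0.795. DESeq2 also gave 0 of the matrix genes, while 10 of all 16496 genes passed with it. At an unadjusted p below 0.05 there were 0 higher (3.55% of all genes) and 1 lower, Tgfbr2 (1.85% of 54, against 2.38% of all genes). DESeq2 gave 0 higher (2.58% of all genes) and 1 lower (2.03%). The groups did not overlap for 1 gene that was higher, Lum (6.03% of all genes), and for 2 that were lower, Fbln5 and Tgfbr2 (5.79% of all genes). These shares were no larger than those of all genes. Fitted log2 fold changes ran from -0.47 (Ctgf) to 0.42 (Tagln), and within the first library series, which holds 3 LP245/+ and 2 LP+/+ livers, the median was -0.03 with 23 higher and 31 lower.

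Between LPfl/+ and LP+/+ livers more of the matrix genes were lower than higher. Of the 54, 39 were lower and 15 higher in LPfl/+, with a median log2 fold change of -0.22, beside -0.00 over all genes tested. With edgeR and with DESeq2, 0 passed the cutoff, and the smallest edgeR adjusted p was 0.697. Over all 16496 genes, 0% passed with edgeR and 8 genes with DESeq2. At an unadjusted p below 0.05, 5 were lower (9.26%, against 2.67% of all genes) and 0 higher (4.22% of all genes). DESeq2 gave 6 lower (2.52% of all genes) and 0 higher (2.86%). Every LPfl/+ liver was below every control for 15 genes (27.8%, against 13.2% of all genes) and above for 1, Dcn (11.9% of all genes). This pattern depended on single livers. Without LPfl/+ replicate 1 the median was -0.07, with 34 lower and 20 higher. Without LPfl/+ replicate 2 it was -0.41, with 45 lower and 9 higher. Without the control LP+/+ replicate 2 the median was -0.17, with 38 lower and 16 higher. At an unadjusted p below 0.05 that fit gave 1 lower (1.65% of all genes) and 3 higher (2.65%). In the 2 fits that leave out an LPfl/+ liver, the LPfl/+ liver that is left is assumed to vary like the livers of the other genotypes. For that reason only the medians and directions of these 2 fits are given. Within the second library series, 2 LPfl/+ livers against LP+/+ replicate 1, the median was -0.09, and with the series as a covariate it was -0.08. The fit with the covariate gave 3 genes at an unadjusted p below 0.05, all of them higher. The shares of all genes in that fit were 2.95% higher and 2.42% lower.

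Between LP245/+ and LPfl/+ livers the counts were 39 higher and 15 lower in LP245/+, with a median of 0.12 beside 0.00 over all genes. This comparison shares the LPfl/+ livers with the one above and is not independent of it. With edgeR and with DESeq2, 0 of 54 passed the cutoff, and the smallest edgeR adjusted p was 0.407. Over all 16496 genes, 0% passed with edgeR and 56 genes with DESeq2. At an unadjusted p below 0.05, 4 were higher (7.41%, against 4.07% of all genes) and 1 lower (1.85%, against 4.44%). DESeq2 gave 8 higher (3.67% of all genes) and 1 lower (3.62%). The groups did not overlap for 13 that were higher (24.1%, against 12.1% of all genes) and 6 that were lower (11.1%, against 13.3%). Without LPfl/+ replicate 1 the median was 0.01 and without replicate 2 it was 0.41. With the library series as a covariate the median was 0.02, with 28 higher and 26 lower, and the genes at an unadjusted p below 0.05 were 0 higher (2.58% of all genes in that fit) and 4 lower (2.7%), so that neither the excess of higher genes nor the direction of those below 0.05 was the same as without it. This pair has no direct comparison inside 1 series.

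**Figure D4:**
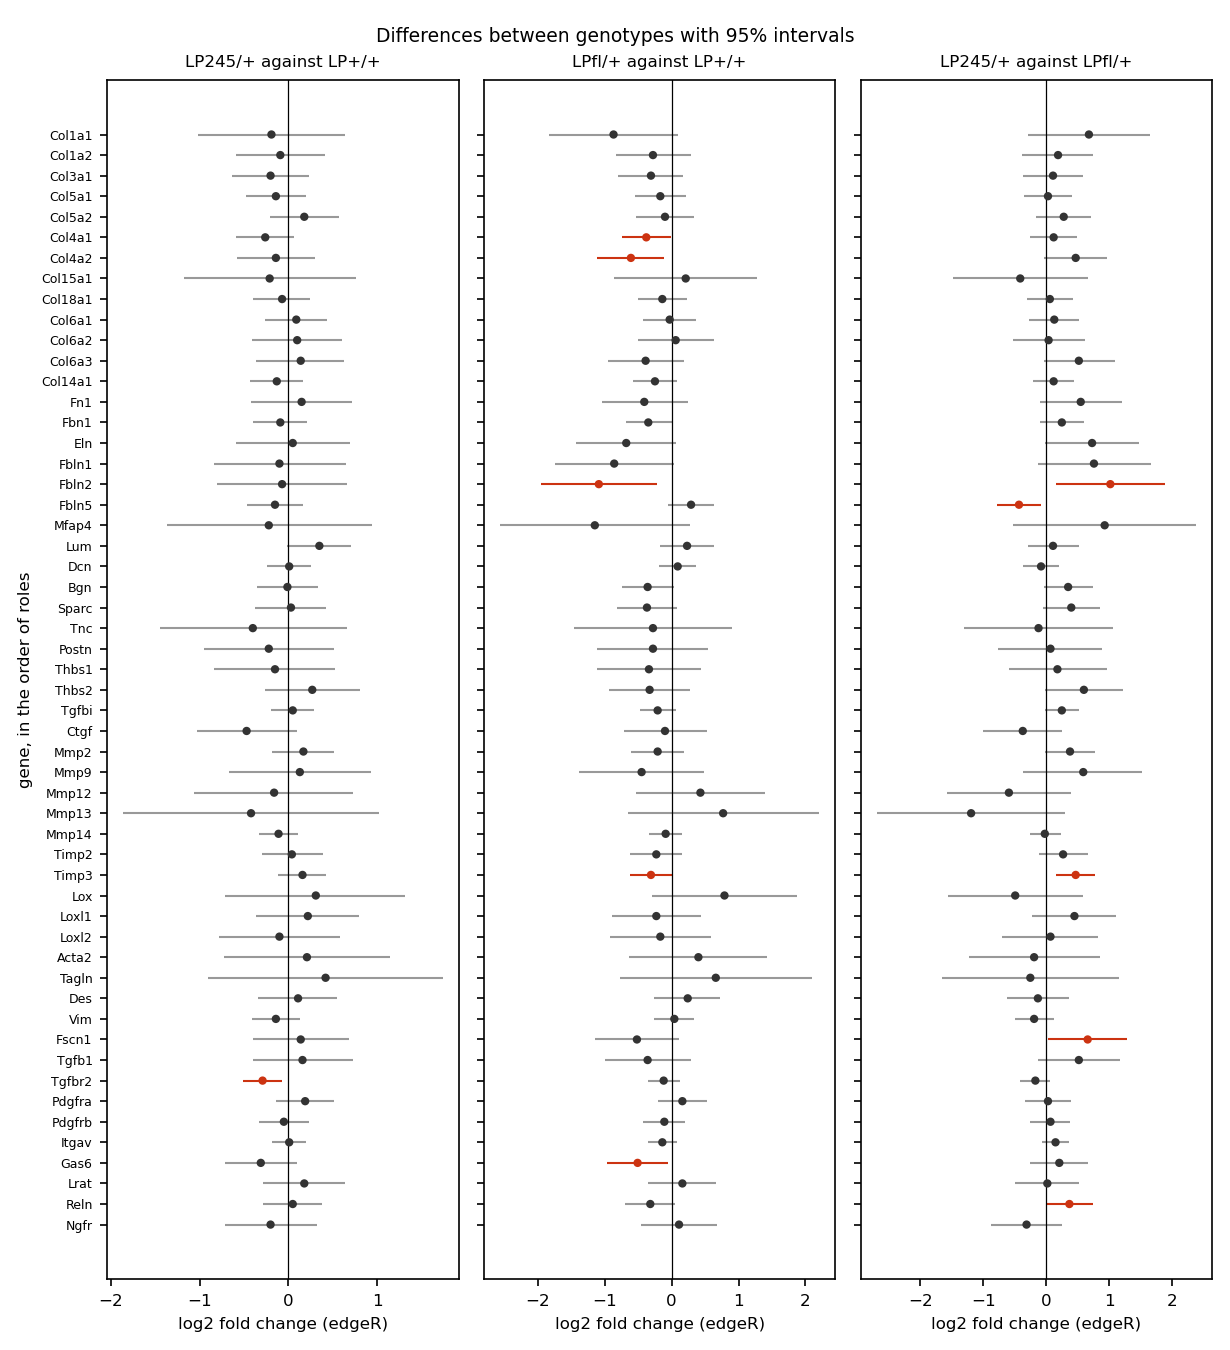
Log2 fold change from edgeR (points) with its 95% interval (lines) for the 54 matrix genes tested, in 3 comparisons, positive where the genotype named first is higher; red marks an unadjusted p below 0.05. The points of the first panel scatter about 0, with 26 above and 28 below, and most of the second lie below 0 (39 of 54).

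The fibrillar collagens give the tensile strength of scar tissue. Col1a1 (ENSMUSG00000001506.10, GRCm38 chr11:94936224-94953042), the main chain of type I collagen, had normalized counts of 176, 304 and 254 in the controls, 91.2 and 174 in LPfl/+, and 281, 253 and 103 in LP245/+. Both LPfl/+ livers were below all controls, though replicate 2 by a narrow margin, and LP245/+ replicate 3 was within their range. It differed by -0.87 on the log2 scale in LPfl/+ (SE 0.43, edgeR adjusted p = 0.748) and -0.19 in LP245/+ (SE 0.37, edgeR adjusted p = 0.955). The LPfl/+ difference ran from -1.43 to -0.5 with single livers left out and was -0.40 with the library series as a covariate. Col3a1, the chain of type III collagen, had 1239, 1975 and 1733 in the controls, 1045 and 1591 in LPfl/+, and 1339, 1577 and 1348 in LP245/+, so that the ranges overlapped in each comparison. All 5 fibrillar collagens had a lower fitted value in LPfl/+ than in LP+/+, from -0.87 (Col1a1) to -0.10 (Col5a2), and 4 of 5 in LP245/+, from -0.20 (Col3a1) to 0.18 (Col5a2), with 0 at an unadjusted p below 0.05.

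The 2 chains of type I collagen are joined in one triple helix, so their ratio can be followed within each liver. Per exon length, Col1a1 over Col1a2 was 0.715, 0.852 and 0.88 in the controls, 0.475 and 0.59 in LPfl/+, and 0.87, 0.816 and 0.524 in LP245/+. Both LPfl/+ livers and LP245/+ replicate 3 lay below the other 5. In these same 3 livers Col3a1 over Col1a1 was highest, at 7.66, 6.13 and 8.76, against 3.19 to 4.71 in the others, so Col1a1 was low there relative to both partners. The ratios were computed after the values had been seen and were not tested.

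Type IV collagen is the network former of basement membranes, and its chains Col4a1 (ENSMUSG00000031502.11, chr8:11198423-11312826, minus strand) and Col4a2 (ENSMUSG00000031503.13, chr8:11312805-11449287, plus strand) are transcribed away from each other, with gene bodies that overlap by 22 bases. Col4a1 had 1654, 1918 and 1792 in the controls, 1125 and 1602 in LPfl/+, and 1350, 1708 and 1375 in LP245/+. Col4a2 had 721, 1064 and 950 in the controls, 500 and 688 in LPfl/+, and 809, 1008 and 643 in LP245/+. For both chains the LPfl/+ livers lay below all controls, and the LP245/+ range overlapped that of each other genotype. In LPfl/+ the log2 fold change was -0.38 for Col4a1 (SE 0.17, edgeR adjusted p = 0.721) and -0.61 for Col4a2 (SE 0.23, edgeR adjusted p = 0.703), and in LP245/+ it was -0.26 and -0.14. With single livers left out, the LPfl/+ difference ran from -0.68 (without LPfl/+ replicate 2) to -0.16 (without replicate 1) for Col4a1 and from -0.88 to -0.41 for Col4a2, and with the library series as a covariate it was -0.27 for each. Of the other vessel and basement membrane collagens, Col18a1 ran from 23454 to 32412 over the 8 livers, while Col15a1 ran from 90.3 to 287 and varied as much within LP+/+ (287, 138 and 90.3) as anywhere. The microfibrillar chains Col6a1, Col6a2 and Col6a3 and the fibril-associated Col14a1 had fitted values between -0.39 and 0.06 in LPfl/+ and between -0.13 and 0.14 in LP245/+, each with overlapping groups.

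Fibronectin and the elastic fibre proteins held the largest fitted differences between LPfl/+ and LP+/+. Fn1, on which cells and other matrix proteins assemble, had 50130, 45734 and 48989 in the controls, 39318 and 33090 in LPfl/+, and 59752, 68904 and 30166 in LP245/+. The LP245/+ livers thus included both the highest values and the lowest of the 8, and the log2 fold change against LP+/+ was 0.15 (SE 0.25, edgeR adjusted p = 0.949). Fbln2 (ENSMUSG00000064080.12, chr6:91212455-91272540), a fibulin of elastic fibres and vessel walls, had 81.2, 168 and 131 in the controls, 40.5 and 77.8 in LPfl/+, and 147, 127 and 84.5 in LP245/+. Both LPfl/+ livers were below the other 6, replicate 2 only just. On the log2 scale the difference was -1.09 for LPfl/+ against LP+/+ (SE 0.39, edgeR adjusted p = 0.697) and 1.02 for LP245/+ against LPfl/+ (SE 0.39, edgeR adjusted p = 0.526), which share the LPfl/+ livers. Left-out livers moved the former between -1.65 and -0.71 and the latter between 0.62 and 1.56, and with the library series as a covariate they were -0.45 and 0.14.

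Mfap4, a microfibril-associated glycoprotein, had the largest fitted difference between LPfl/+ and LP+/+ but very few reads. Its normalized counts were 11.6, 24 and 12.2 in the controls, 3.04 and 11.1 in LPfl/+, and 7.23, 15.2 and 18.3 in LP245/+. The log2 fold change of -1.15 in LPfl/+ (SE 0.64, edgeR adjusted p = 0.757) ran from -2.35 to -0.52 with single livers left out, and replicate 1 had 3 counts. Fbln5, a fibulin needed for elastic fibre assembly, went against the rest, with 227, 213 and 219 in the controls, 227 and 306 in LPfl/+, and 192, 201 and 199 in LP245/+. The LP245/+ livers were below all 5 others, with a log2 fold change of -0.43 against LPfl/+ (SE 0.16, edgeR adjusted p = 0.503, and -0.63 to -0.2 with single livers left out) and -0.15 against LP+/+ (SE 0.14, edgeR adjusted p = 0.89). Eln, Fbln1 and Fbn1 had fitted values of -0.68, -0.86 and -0.35 in LPfl/+, with edgeR adjusted p of 0.748, 0.731 and 0.724.

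The proteoglycans and matricellular proteins, which organise the matrix and signal from it, were mixed. Dcn had 5234, 5046 and 5164 in the controls, 5254 and 5620 in LPfl/+, and 4855, 4666 and 5913 in LP245/+, and was among the steadiest genes of the set, with a coefficient of variation of 7.65% over 8 livers. LPfl/+ was above LP+/+ in both livers, by a log2 fold change of 0.09 (SE 0.13, edgeR adjusted p = 0.91). Lum, lumican, was the 1 gene higher in every LP245/+ liver than in every control (363 to 477 against 303 to 334), at a log2 fold change of 0.35 (SE 0.16, edgeR adjusted p = 0.831). Sparc had 1698, 1992 and 2568 in the controls, 1469 and 1740 in LPfl/+, and 2368, 1650 and 2320 in LP245/+, with overlap in each comparison. The proteoglycan biglycan (Bgn) had 1993, 1910 and 2162 in the controls, 1322 and 1810 in LPfl/+, and 2368, 1949 and 1674 in LP245/+. Both LPfl/+ livers were below all controls, at a log2 fold change of -0.36 (SE 0.17, edgeR adjusted p = 0.744). Thrombospondin 2 (Thbs2) was higher in every LP245/+ liver than in both LPfl/+ livers, at 0.60 (SE 0.27, edgeR adjusted p = 0.583). All 7 matricellular genes had lower fitted values in LPfl/+ than in LP+/+, between -0.37 and -0.10, at a smallest adjusted p of 0.757.

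Ctgf, the connective tissue growth factor that TGF-beta and mechanical strain induce, had the largest fitted difference between LP245/+ and LP+/+. Its normalized counts were 269, 146 and 272 in the controls, 254 and 172 in LPfl/+, and 187, 144 and 162 in LP245/+. Control replicate 2 lay among the LP245/+ livers, and the log2 fold change was -0.47 (SE 0.25, edgeR adjusted p = 0.831). It stayed between -0.72 and -0.33 with single livers left out.

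The metalloproteinases cut collagen and other matrix. Mmp2, a gelatinase, had 133, 118 and 137 in the controls, 119 and 104 in LPfl/+, and 158, 131 and 146 in LP245/+. Each LP245/+ liver was above both LPfl/+ livers, by a log2 fold change of 0.38 (SE 0.18, edgeR adjusted p = 0.585), and LP245/+ and LP+/+ overlapped. Mmp13, the main collagenase of rodents, had only 2.9, 16.3 and 5.65 in the controls, 12.2 and 16.2 in LPfl/+, and 5.17, 9.09 and 4.07 in LP245/+. The log2 fold change between LP245/+ and LPfl/+, -1.19 (SE 0.67, edgeR adjusted p = 0.671), is the largest of that comparison and rests on values under 20, and it was -3.06 with the library series as a covariate. The membrane-bound Mmp14, at 608 to 761, was one of the steadiest genes, with a coefficient of variation of 7.33%.

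Of the inhibitors, Timp3 gave the lowest p. Timp3 (ENSMUSG00000020044.13, chr10:86300372-86349506), the matrix-bound member whose upstream bases are shown above, had 434, 557 and 523 in the controls, 376 and 432 in LPfl/+, and 530, 522 and 622 in LP245/+. Both LPfl/+ livers were below the other 6, with LPfl/+ replicate 2 and LP+/+ replicate 1 nearly level. It differed by a log2 fold change of 0.47 for LP245/+ against LPfl/+ (95% interval 0.16 to 0.78, edgeR adjusted p = 0.407) and -0.31 for LPfl/+ against LP+/+ (SE 0.14, edgeR adjusted p = 0.724). With the library series as a covariate these were 0.15 and -0.09. It overlaps Syn3, on the opposite strand, which had 41 to 96 counts. Timp1, the secreted inhibitor that activated stellate cells and macrophages make, had 3.86, 8.64 and 2.82 in the controls, 4.05 and 5.05 in LPfl/+, and 2.07, 5.05 and 2.04 in LP245/+, at or near the floor of 3 counts, and was not tested. Lox, the lysyl oxidase on chromosome 18, had 5.8, 18.2 and 7.53 in the controls, 20.3 and 16.2 in LPfl/+, and 12.4, 13.1 and 13.2 in LP245/+. The groups overlapped between each mutant and the controls, and both LPfl/+ livers were above all LP245/+ livers, by few reads (log2 fold change -0.49, SE 0.48, edgeR adjusted p = 0.824).

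The contractile and cytoskeletal genes mark activated stellate cells and smooth muscle. Acta2 had 59.9, 121 and 71.5 in the controls, 47.6 and 173 in LPfl/+, and 98.2, 85.9 and 106 in LP245/+. The 2 LPfl/+ livers were the lowest and the highest of the 8, and the LP245/+ livers lay within the range of the controls (log2 fold change 0.21, SE 0.42, edgeR adjusted p = 0.957). Tagln had 7.73, 8.64 and 2.82 in the controls, 15.2 and 5.05 in LPfl/+, and 7.23, 12.1 and 6.11 in LP245/+, too few reads for an ordering. Des, the intermediate filament desmin that rodent stellate cells carry also at rest, had 140, 108 and 85.6 in the controls, 131 and 129 in LPfl/+, and 122, 106 and 128 in LP245/+. The genotypes of Des overlapped except that LPfl/+ was above LP245/+ (log2 fold change -0.13 for LP245/+ against LPfl/+, SE 0.22, edgeR adjusted p = 0.923). Fscn1, an actin-bundling protein, had 76.3, 108 and 97.9 in the controls, 59.8 and 70.7 in LPfl/+, and 113, 124 and 71.3 in LP245/+. LPfl/+ was lowest in both livers, and LP245/+ replicate 3 was level with them, with a log2 fold change of 0.66 for LP245/+ against LPfl/+ (SE 0.28, edgeR adjusted p = 0.559), or 0.23 with the library series as a covariate.

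**Figure D5:**
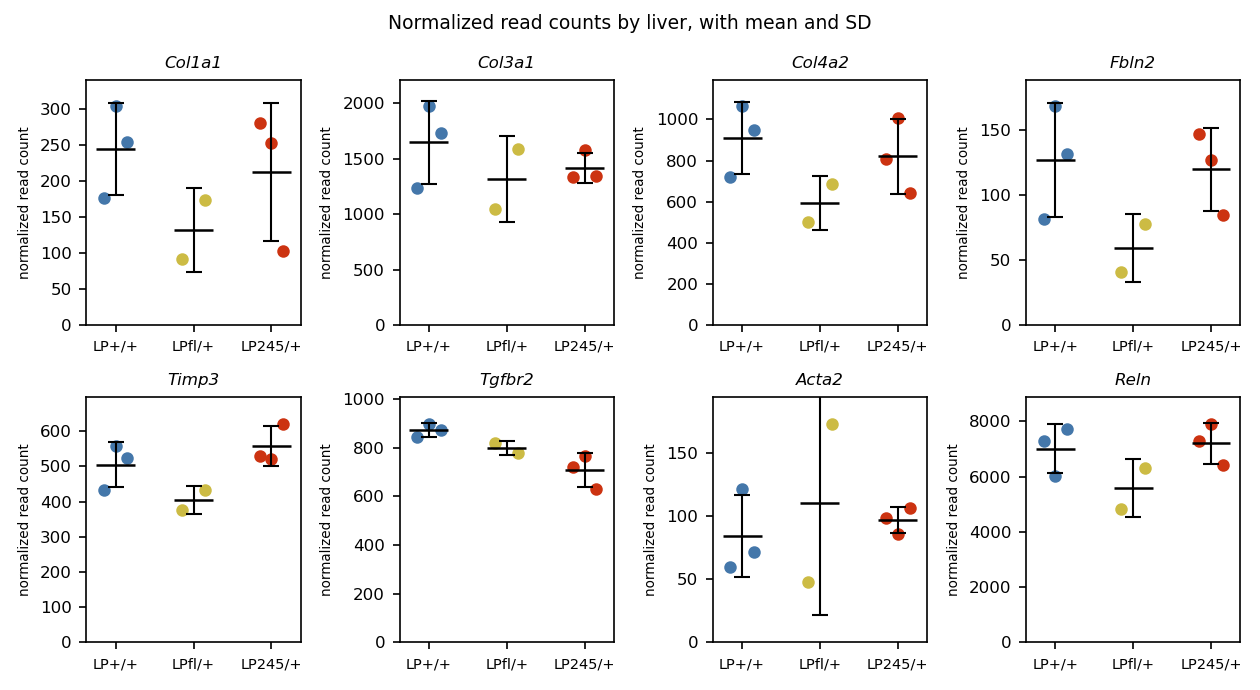
Normalized read counts of 8 matrix genes in each liver (points), with the mean (bar) and SD (whiskers) of 3 LP+/+, 2 LPfl/+ and 3 LP245/+ livers; each axis starts at 0. Fbln2, Timp3 and Col4a2 are lowest in LPfl/+ on average, Tgfbr2 is lower in all 3 LP245/+ livers than in the others, and the 2 LPfl/+ livers of Acta2 lie at 47.6 and 173.

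Among ligands and receptors, Tgfbr2 (ENSMUSG00000032440.13, chr9:116084293-116175360, minus strand), the receptor that binds TGF-beta and activates its partner kinase, was the 1 gene of the set at an unadjusted p below 0.05 between LP245/+ and LP+/+. It had 842, 899 and 871 in the controls, 819 and 779 in LPfl/+, and 722, 767 and 631 in LP245/+, so that the 3 genotypes did not overlap and were ordered LP+/+, LPfl/+, LP245/+. Against LP+/+ the LP245/+ livers differed by -0.29 on the log2 scale (95% interval -0.51 to -0.07, edgeR adjusted p = 0.795), and with single livers left out it stayed between -0.35 and -0.22. LPfl/+ differed from LP+/+ by -0.12 (SE 0.11, edgeR adjusted p = 0.85) and LP245/+ from LPfl/+ by -0.17 (SE 0.11, edgeR adjusted p = 0.714), which are smaller than 2 standard errors. Whole liver holds many cells with this receptor, hepatocytes included, so its cell of origin cannot be read here. The ligand Tgfb1 had 128, 139 and 120 in the controls, 92.2 and 108 in LPfl/+, and 186, 157 and 87.6 in LP245/+. Both LPfl/+ livers were below the controls, but LP245/+ spanned the lowest and the highest of the 8 values (log2 fold change 0.16 against LP+/+, SE 0.25, edgeR adjusted p = 0.938).

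Gas6 (ENSMUSG00000031451.6, chr8:13465374-13494490, minus strand), the vitamin K-dependent ligand of the TAM receptors, had 844, 1529 and 1162 in the controls, 809 and 833 in LPfl/+, and 844, 1015 and 979 in LP245/+. The controls spread from 844 to 1529, and the lowest of them was close to LPfl/+, although the groups did not overlap. LPfl/+ differed from LP+/+ by a log2 fold change of -0.51 (SE 0.21, edgeR adjusted p = 0.704), which was -0.30 without LP+/+ replicate 2, -0.70 without LP+/+ replicate 1 and -0.03 with the library series as a covariate. Pdgfrb, the receptor for PDGF-B on stellate cells and pericytes, had 534, 453 and 448 in the controls, 391 and 488 in LPfl/+, and 437, 506 and 436 in LP245/+, and differed by -0.05 in LP245/+ (SE 0.12, edgeR adjusted p = 0.969) and -0.11 in LPfl/+ (SE 0.14, edgeR adjusted p = 0.888). The integrin chain Itgav, which takes part in TGF-beta activation, was the steadiest gene of all, at 1493 to 1739.

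The 3 stellate cell markers of the list were detected in every liver, and their differences went in different directions. Lrat had 849, 984 and 871 in the controls, 847 and 1152 in LPfl/+, and 818, 826 and 1401 in LP245/+. The high value of LP245/+ replicate 3 stood apart from the other 2 of its genotype, and the groups overlapped (log2 fold change 0.18, SE 0.20, edgeR adjusted p = 0.914). Reln (ENSMUSG00000042453.14, chr5:21884454-22344702, minus strand), whose upstream bases with 6 GC boxes are shown above, had 7297, 6016 and 7729 in the controls, 4831 and 6317 in LPfl/+, and 7273, 7923 and 6432 in LP245/+. Both LPfl/+ livers were below all LP245/+ livers, with a log2 fold change of 0.37 for LP245/+ against LPfl/+ (SE 0.17, edgeR adjusted p = 0.583). Without LPfl/+ replicate 1 it was 0.19 and without replicate 2 it was 0.58. LPfl/+ replicate 2 was above control replicate 2. The ratio of Reln to Acta2 per exon length was 4.6 to 11.3 in the controls, 3.38 and 9.38 in LPfl/+, and 5.62 to 8.53 in LP245/+, and these ranges overlapped. Ngfr had 138, 123 and 175 in the controls, 120 and 193 in LPfl/+, and 124, 149 and 105 in LP245/+. The groups of Ngfr overlapped in each comparison.

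The matrix genes varied more between livers of one genotype than genes at a like level. The median SD within genotypes was 0.31 on the log2 scale for the 54 genes and 0.22 for all genes tested, and 43 of the 54 were above the median of genes within 0.5 of their log2 level. Tnc, the tenascin of remodelling tissue, had an SD of 0.79, Col15a1 and Mmp13 0.69, Acta2 0.67 and Col1a1 0.63. Itgav (0.07), Mmp14 and Tgfbr2 (0.10 each) were the tightest. The spread of these genes sets which differences can be detected, and for Col1a1 the 95% interval of LP245/+ against LP+/+ ran from -1.02 to 0.64.

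Genes of the same processes outside the list were counted in the same way. Of 80 listed genes for collagen folding, further collagens, TGF-beta and PDGF signalling, laminins, integrins and other metalloproteinases, 69 were tested, and 0 passed the cutoff in any comparison with edgeR. In LPfl/+ against LP+/+, 46 were lower and 23 higher, with a median of -0.12 and 5 lower at an unadjusted p below 0.05 (7.25%, against 2.67% of all genes) and 0 higher (against 4.22%). All 9 laminins and other basement membrane proteins, the partners of type IV collagen, had lower fitted values in LPfl/+, with a median of -0.25. Nid1, which links laminin to collagen IV, had -0.43 (SE 0.15, edgeR adjusted p = 0.697). Lower values there were not particular to these genes. They were found for 8 of 9 sinusoidal endothelial markers (median -0.19) and 7 of 8 hepatocyte markers (median -0.25). Macrophage and stellate cell markers had medians of -0.01. P4ha1, the catalytic chain of the enzyme that hydroxylates collagen proline, had a mean of 594 in LP+/+, 469 in LPfl/+ and 706 in LP245/+. Its log2 fold change was 0.59 for LP245/+ against LPfl/+ (SE 0.12, edgeR adjusted p = 0.362), the lowest p of the 80. In LP245/+ against LP+/+, 44 were lower and 25 higher (median -0.06), and 2.9% were higher and 1.45% lower at that p, against 3.55% and 2.38% of all genes. They were P4ha1 (0.26) and the ligand Tgfb3 (0.65, means 43.2 and 27.8), which were higher, and the integrin chain Itgb5 (-0.28), which was lower. In LP245/+ against LPfl/+, 42 were higher and 27 lower (median 0.09), with 3 of each at that p (4.35% each way, against 4.07% of all genes higher and 4.44% lower), which is near the background.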

How the data were processed

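The authors prepared strand-specific total RNA libraries from flash-frozen liver, sequenced them as paired-end reads, aligned them to GRCm38 with STAR, and deposited read counts per gene, whole numbers without normalization, which were used as deposited. The GENCODE release and the counted strand are not given in the sources used here. GENCODE M21 gave symbols and positions (259 of 49585 identifiers had no symbol), and RefSeq gave promoters. All 8 columns matched a sample label (0 left over). Totals were 26304526 to 31370714 counts, and 3 counts were taken as the floor, counting error only.

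The main test was the quasi-likelihood test of edgeR 4.0.16 in R 4.3.3, with TMM factors and filterByExpr by genotype, on 16496 genes in all 8 livers, with Benjamini-Hochberg adjustment over all of them. Calls needed both an adjusted p no higher than 0.05 and a log2 fold change of 1 or more in either direction. P-values measure the spread between these livers, 1 animal each as far as the labels say. Normalized counts were counts divided by DESeq2 1.42.0 size factors. Intervals are 95% intervals of the fit. Windows of 250 bases before each RefSeq start were searched for motifs. Genes named with every value were Col1a1, Col3a1, Col4a1, Fn1, Dcn, Sparc, Mmp2, Timp1, Lox, Acta2, Des, Pdgfrb, Tgfb1 and Lrat, those at an unadjusted p below 0.05, and the 3 largest by fold in each comparison. Bgn and Ngfr were also given with every value, outside this rule. The genes and lists were chosen with earlier results of these data known. The test was checked on simulated data. Alternatives were other size factors, library totals, no filter and at least 10 counts in every liver, DESeq2, only the livers compared, a replicate block, the library series as a covariate, no fold cutoff, and each liver left out; within-series ratios (0.5 added to each mean) were added after seeing the data. No pairing of animals by replicate number is given in the labels or the paper. The library series was inferred from the numbers in the labels and is not stated there.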

Additional observations from a re-analysis of the deposited data

How the results depend on the processing

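Of the matrix genes, 0 passed the cutoff in each of the 3 comparisons under every alternative that kept both LPfl/+ livers. This included DESeq2 and no fold cutoff. Other genes did pass it in some runs. With DESeq2, 10, 8 and 56 of all 16496 genes passed for LP245/+ against LP+/+, LPfl/+ against LP+/+ and LP245/+ against LPfl/+. With no filter these counts were 20, 14 and 122 of 30240. For LP245/+ against LPfl/+, 51 of 16074 passed with only the livers compared. The number of matrix genes at an unadjusted p below 0.05 moved more. For LP245/+ against LP+/+ it was 1, and 4 with no filter and 3 with the library series as a covariate. With only the livers compared it was 1 higher (3.28% of all genes in that fit) and 1 lower (2.36%). With the replicate block it was 0 higher (3.13%) and 3 lower (2.22%). With single LP+/+ or LP245/+ livers left out it was 1 to 3. In those fits 2.21% to 4.24% of all genes were higher at that p and 1.66% to 3.51% lower. For LPfl/+ against LP+/+ it was 5, and 3 with library totals, 13 with no filter and 3 with the series as a covariate, and 3 to 16 with single livers left out, the highest being without LPfl/+ replicate 2 and 12 without LP+/+ replicate 1 and 10 without LP245/+ replicate 3. For LP245/+ against LPfl/+ it was 5, and 3 with library totals, 13 with no filter, 9 with DESeq2, 10 with only the livers compared and 10 with the replicate block, and 1 to 17 with single livers left out, 17 without LPfl/+ replicate 2, 12 without LP245/+ replicate 3, 10 without LP+/+ replicate 1, 2 without LPfl/+ replicate 1 and 1 without LP245/+ replicate 1. The cause was not tested. With no filter all 13 for LPfl/+ against LP+/+ were lower (2.2% of all genes in that fit). All 3 with the series as a covariate were higher (2.95%). LP245/+ against LPfl/+ had 12 higher (3.07%) and 1 lower (3.47%) with no filter, and 4 lower (2.7%) with the covariate. LP245/+ against LP+/+ had 1 higher (2.74%) and 3 lower (2.08%) with no filter, and 3 lower (2.52%) with the covariate. Fits without an LPfl/+ liver leave 1 in that group, so their counts at this p are not given.

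The median log2 fold change ran from -0.05 to 0.02, from -0.41 to -0.07 and from 0.01 to 0.41 with single livers left out. With library totals the split of LP245/+ against LPfl/+ was 31 higher and 23 lower (median 0.05), and with the series as a covariate it was 28 higher and 26 lower (median 0.02). Neither the labels nor the paper gives a pairing by replicate number. Same-numbered livers deviated from their genotype means with correlations of -0.0822 to 0.0339, none over 0.1. With so few livers per genotype these correlations cannot exclude a pairing. Signs turned for LP245/+ against LP+/+ with Dcn (-0.01 with library totals), Sparc (-0.10) and Pdgfrb (0.04, both with the series as a covariate). With single livers left out Col1a1 ran from -0.46 to 0.13, Fn1 from -0.09 to 0.42, Dcn from -0.11 to 0.07, Sparc from -0.1 to 0.2, Mmp13 from -0.82 to 0.5, Des from -0.05 to 0.31, Tgfb1 from -0.08 to 0.41, Pdgfrb from -0.12 to 0.04 and Lrat from -0.13 to 0.31. Genes under 20 counts, such as Mmp13, Lox, Tagln and Mfap4, are limited by depth.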
